A study of Mus musculus with 12 samples.

Results

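Livers of Nrf2 null mice were compared with those of wild type mice after both had received CDDO-Im. The members are 6 of the 12 liver arrays of the study, chosen by their titles, and every one of the 18193 genes tested was compared on them. One group was 3 arrays of wild type livers and the other 3 arrays of Nrf2 null livers. All 6 were from male mice given CDDO-Im by gavage at 30 uM/kg, as the labels write the dose, with a time of 6 hours. The other 6 arrays were wild type and Nrf2 null livers, 3 each, with vehicle by gavage at 0 uM/kg and the same time. Strain, age, the design of the null allele and whether each array came from its own animal were not given in the sources used here, so the p-values cover only the scatter of these samples, which may be technical. The values are log2 intensities made by RMA, which corrects the background, normalises the arrays and sums the probes of a probe set. One probe set stood for each gene, that with the highest mean over all 12 arrays.

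Nrf2, encoded by Nfe2l2, is a transcription factor that the adaptor Keap1 marks for degradation in resting cells. Electrophiles modify cysteines of Keap1, Nrf2 then accumulates, pairs with a small Maf protein and binds antioxidant response elements beside genes for quinone reduction, glutathione synthesis, conjugation, NADPH supply and export. CDDO-Im is a synthetic triterpenoid, the imidazolide of CDDO, and is known as a potent activator of this pathway. In liver the pathway is known for its part in the clearance of drugs and reactive metabolites.

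Array medians lay between 5.77 and 5.83 over all 12 arrays, and arrays of the same group correlated with each other at 0.986 to 0.994 on average over probe sets. Of the hepatocyte markers 8 were measured, with a median level of 13.1 to 13.4 on the wild type arrays and 13.1 to 13.2 on the null arrays. Of the 9 pancreatic acinar markers measured none was called. The elastase gene Cela2a read 5.50 to 6.09 in wild type and 5.79 to 6.30 in the null group under CDDO-Im, while Cela1, another elastase gene, read 7.95 to 8.47 against 9.09 to 9.48 without overlap (difference 1.17, adjusted p = 0.62). The part of Cela1 in other results was not tested. Vehicle arrays wild type replicate 3 and null replicate 2 stood apart with 11.09 and 9.22 for Cela2a. They enter this comparison through the shared estimate of the spread and the choice of probe set. Leaving both out, 1 acinar marker was called. The absence of acinar calls with both arrays in the fit therefore says little.

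Nfe2l2 (Entrez Gene 18024) was read first because it checks the genotype labels. Its level was 8.37, 9.14 and 8.67 on the wild type arrays and 4.78, 4.96 and 4.93 on the null arrays. Every null array lay far below every wild type array, and all 3 null values were under their array's median. The difference, null minus wild type here and throughout, was -3.84 ± 0.17 (log2, standard error of the limma model, n = 3 per group; adjusted p = 2.73e-07, limma with Benjamini-Hochberg adjustment over all genes tested). It was -3.89 under vehicle. A dimmer Nfe2l2 probe set read 4.68 in wild type and 4.92 in the null group and did not follow the label (difference 0.24, adjusted p = 0.486 over all probe sets); which part of the transcript either probe set reads is not given in the sources used here.

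In the null group 150 genes were lower and 113 higher at an adjusted p under 0.05, 263 in all, which is 1.45% of the genes tested (0.824% lower, 0.621% higher; limma). The arrays of both groups did not overlap for any of the 263, against 16.8% of all genes tested. At least a 2-fold difference was seen for 92, of which 72 were lower and 20 higher. Among the called genes the median difference was -0.93 for those lower and 0.67 for those higher, against 0.01 over all genes. The genes were called on these same arrays, so neither the lack of overlap nor the medians is separate support. Detoxification enzymes and the pump Abcc3 made up most of the 12 largest falls, and lipid genes stood among the 12 largest rises. Livers were sampled whole, so fewer cells of a type and less RNA per cell cannot be told apart.

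The calls varied with single arrays. Leaving out wild type CDDO-Im replicate 2 left 151 calls, leaving out wild type CDDO-Im replicate 3 left 162, and leaving out wild type vehicle replicate 3 gave 464; without both arrays with acinar transcripts there were 411. In every one of the 12 fits that left out 1 array 121 of the 263 genes were called, 87 lower and 34 higher. A test against a minimum fold of 1.5, in place of any difference, called 28 genes (25 lower, 3 higher). Of the 90 called genes that could be named, 25 were called under every alternative tried. Those were Abcc3, Nfe2l2, Ces1g, Gsta2, Aox1, Gstm4, Gstm3, Ugdh, Pir, Srxn1, Fgf21, Nqo1, Cbr3, Cbr1, Gsr, Gclc, Gstm1, Txnrd1, Blvrb, Pgd, Ugt2b35, Cyp2d13, 9130409I23Rik, Thrsp and Cst3.

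**Figure D1:**
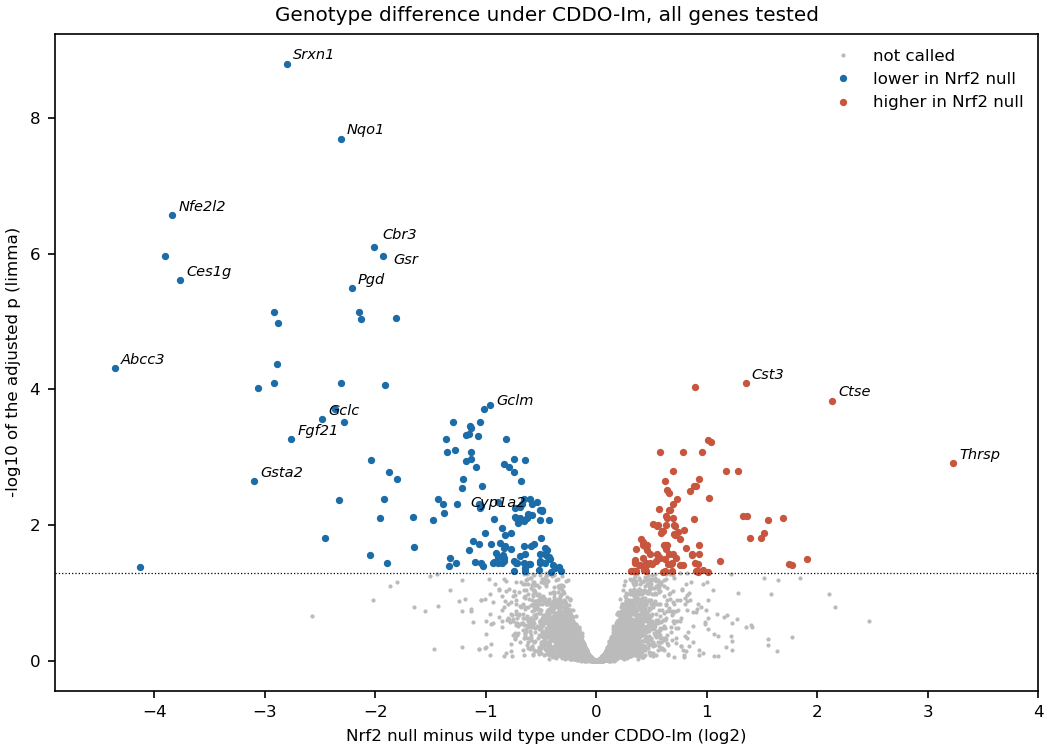
Every gene tested is a point: the horizontal axis is the log2 difference, Nrf2 null minus wild type under CDDO-Im, and the vertical axis is -log10 of the limma adjusted p, with the dotted line at 0.05. Blue points are the 150 genes lower in the null group and red points the 113 higher; Srxn1 and Nqo1 have the smallest adjusted p, and Abcc3 the largest difference.

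Quinone and carbonyl reduction, epoxide and aldehyde removal was the list with the most called members, 7 of 24 measured, all lower. Lists differ in size, and over all genes tested 0.824% were called lower and 0.621% higher. Its median difference was -0.57, against 0.01 over all genes. Nqo1 (Entrez Gene 18104), the quinone reductase used as the standard readout of Nrf2 activity, read 7.15, 7.18 and 7.26 in wild type and 4.89, 4.90 and 4.86 in the null group. The replicates were nearly identical within each group, and all 3 null arrays were below their array medians, so the size of the difference of -2.31 ± 0.08 (adjusted p = 2.03e-08) is less certain than its direction. Cbr3, a carbonyl reductase, also fell under the array medians in the null group, from 7.53, 7.34 and 7.51 to 5.32, 5.55 and 5.47 (difference -2.01 ± 0.10, adjusted p = 8.1e-07). Its relative Cbr1 was measured well above the medians in both groups and differed by -1.91 ± 0.17 (3.76-fold; adjusted p = 8.66e-05). The aldehyde oxidase Aox1, which oxidises aldehydes and many nitrogen heterocycles, read 10.83, 11.22 and 11.25 in wild type and 7.81, 8.29 and 8.02 in the null group. That is an 8.36-fold lower level with no overlap (difference -3.06 ± 0.27, adjusted p = 9.51e-05). Microsomal epoxide hydrolase, Ephx1, was among the brightest genes of the wild type livers at 13.17, 13.08 and 13.20, and read 10.41, 11.12 and 10.95 in the null group (5.02-fold, adjusted p = 0.00426). The aldehyde reductase Akr1a1 differed by -0.51 ± 0.08 (adjusted p = 0.00602). Its further probe sets differed by -0.82, -0.77 and -0.85 (limma adjusted p = 4.60e-04, 4.51e-05 and 3.22e-04 over all probe sets), so the size depends on the probe set.

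Of 15 measured genes of glutathione synthesis, recycling and cystine uptake 4 were called lower and none higher (0.824% and 0.621% of all genes). Their median was -0.35, with 9 negative in value and 6 positive. Gclc, the catalytic subunit of the rate-limiting glutamate-cysteine ligase, read 12.16, 12.28 and 12.48 in wild type and 9.20, 10.10 and 10.17 in the null group, 5.59-fold lower (difference -2.48 ± 0.25, adjusted p = 2.73e-04). Null replicate 1 was the lowest of the 6 arrays, and the groups were separate without it. Its partner Gclm, the modifier subunit, read 11.50, 11.64 and 11.62 against 10.41, 10.69 and 10.62, a smaller 2.02-fold difference (-1.01 ± 0.10, adjusted p = 1.93e-04). Further probe sets of both genes differed in the same direction, by -2.16 for Gclc and -1.01 for Gclm. Gsr, which returns oxidised glutathione to its reduced form, read 11.55, 11.60 and 11.58 in wild type and 9.45, 9.64 and 9.83 in the null group (3.82-fold, adjusted p = 1.08e-06). Gpx4, the peroxidase that removes lipid peroxides, differed by -0.83 ± 0.17 (adjusted p = 0.0304), a call that was kept in 7 of the 12 fits leaving out 1 array and reached 0.115 without null CDDO-Im replicate 1.

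Among 20 measured glutathione S-transferases, the enzymes that attach glutathione to electrophiles, 5 were called lower and none higher (0.824% and 0.621% of all genes). The list's median was -0.37. Gsta2, of the alpha class, read 10.80, 11.38 and 11.31 in wild type and 7.81, 8.81 and 7.58 in the null group. The null arrays varied by more than 1 log2 unit and still did not reach the wild type arrays (8.57-fold, difference -3.10 ± 0.41, adjusted p = 0.00225). For the mu class, Gstm4 read 11.27, 10.72 and 11.21 against 8.17, 8.10 and 8.18 (7.56-fold, adjusted p = 7.14e-06). Gstm3 read 10.27, 10.84 and 11.61 against 8.13, 8.02 and 7.81 (7.55-fold, adjusted p = 8.06e-05). Gstm1 was the brightest of them, at 13.85, 13.86 and 13.89 in wild type and 11.47, 11.62 and 11.41 in the null group (5.16-fold, adjusted p = 1.97e-04). Mu class genes are near-identical in sequence and probes may read more than 1 of them, so their values cannot be assigned with certainty to single genes. Differences in both directions appeared in this list without overlap between groups, for 10 lower and 4 higher members, against 7.82% and 9.01% of all genes.

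The thioredoxin system held the gene with the smallest adjusted p of the comparison. Srxn1, sulfiredoxin, which repairs over-oxidised peroxiredoxins, read 10.44, 10.37 and 10.39 in wild type and 7.64, 7.47 and 7.69 in the null group. The SD was 0.04 and 0.11, no array overlapped, and the level was 6.95-fold lower (difference -2.80 ± 0.07, adjusted p = 1.59e-09). Further Srxn1 probe sets differed by -3.77, -2.27 and -0.20, so the size depends on the probe set. The last read 8.38 in wild type and 8.17 in the null group and was not called (limma adjusted p = 0.543 over all probe sets). Txnrd1, the cytosolic thioredoxin reductase, read 11.15, 11.25 and 11.11 against 9.54, 9.26 and 9.29 (3.5-fold, adjusted p = 8.78e-06). Its substrate thioredoxin, Txn1, differed by -0.96 ± 0.09 (1.94-fold, adjusted p = 1.68e-04). A further, dimmer Txn1 probe set read 7.70 in wild type and 7.73 in the null group and was not called (difference 0.04, limma adjusted p = 0.958 over all probe sets). The list as a whole was mixed, with 3 lower and 1 higher of 14 measured (0.824% and 0.621% of all genes). Its median was -0.09. The higher member was Sod3, the extracellular superoxide dismutase, with 0.75 ± 0.16 (adjusted p = 0.0388), kept in 7 of 12 fits that left out 1 array and at 0.148 in the weakest of them.

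NADPH, which feeds these reductases, is made by genes of which 3 of 9 measured were called lower (0.824% of all genes). Pgd, an enzyme of the oxidative pentose phosphate pathway, read 10.34, 10.17 and 10.28 in wild type and 8.34, 7.72 and 8.07 in the null group (4.64-fold, adjusted p = 3.21e-06). Me1, cytosolic malic enzyme, differed by -1.36 ± 0.15 (2.57-fold, adjusted p = 5.30e-04). Tkt, transketolase of the non-oxidative branch, differed by -1.15 ± 0.12 (2.22-fold, adjusted p = 4.58e-04). All 3 were separate between groups, and the list's median was -0.23.

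Heme and iron genes showed 1 call among 12 measured (1.45% of all genes). Blvrb, a biliverdin reductase that acts on the products of heme breakdown, read 12.33, 12.26 and 12.49 in wild type and 9.84, 10.47 and 10.37 in the null group (4.38-fold, adjusted p = 9.05e-06). Hmox1, heme oxygenase 1, a familiar Nrf2 target, read 8.45, 8.24 and 7.87 in wild type and 7.75, 7.68 and 7.41 in the null group. The groups did not overlap, but the difference of -0.57 ± 0.15 did not pass the test (adjusted p = 0.11). The ferritin heavy chain gene Fth1 differed by -0.27 ± 0.06 (adjusted p = 0.0668) and the transferrin receptor gene Tfrc by -1.32 ± 0.34 (adjusted p = 0.09); neither passed.

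Of the regulators and partners of Nrf2, 13 measured, Nfe2l2 itself and Mafg were called lower (0.824% of all genes). Mafg, a small Maf partner, read 8.77, 8.99 and 8.63 in wild type and 8.36, 8.28 and 8.21 in the null group, a difference of -0.52 ± 0.11 (adjusted p = 0.0453). This call was kept in 4 of the 12 fits leaving out 1 array, with adjusted p up to 0.164. Keap1 read 8.97, 9.09 and 8.94 against 8.78, 8.54 and 8.72, and Sqstm1, the autophagy adaptor that can bind Keap1, 12.09, 11.79 and 11.92 against 11.63, 11.58 and 11.38. Neither passed the test (differences -0.32 and -0.40, adjusted p = 0.103 and 0.0561).

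**Figure D2:**
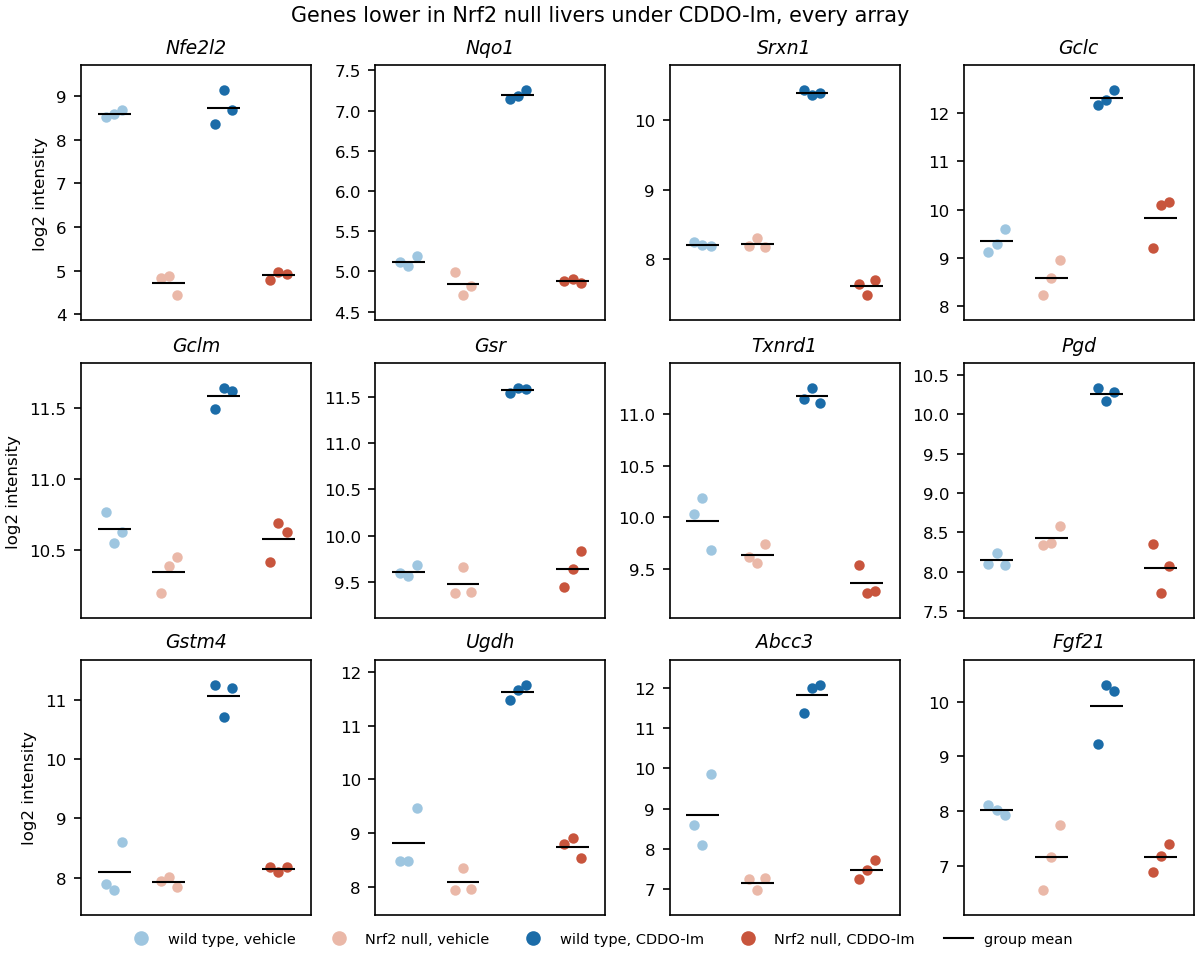
Each panel shows the log2 intensity of 1 gene on all 12 arrays, vehicle in pale and CDDO-Im in dark colours, with a bar at each group mean of 3 arrays and axes that differ between panels. In every panel the 3 Nrf2 null CDDO-Im arrays lie below the 3 wild type CDDO-Im arrays; for Srxn1 they lie at 7.47 to 7.69 against 10.37 to 10.44.

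Glucuronidation, the attachment of glucuronic acid to drugs and bilirubin, had the lowest median of the pathway lists, -0.68. Of its 13 measured members 5 were called lower (0.824% of all genes). Ugdh, which makes UDP-glucuronate, read 11.48, 11.66 and 11.77 in wild type and 8.79, 8.90 and 8.54 in the null group (7.42-fold, adjusted p = 4.17e-05). The glucuronosyltransferase Ugt2b35 read 12.79, 12.97 and 12.86 against 10.64, 10.75 and 10.78 (4.44-fold, adjusted p = 7.14e-06). Ugt2b5, of the same family, differed less, by -1.13 ± 0.14 (2.19-fold, adjusted p = 0.00106). Slc35d1, which carries nucleotide sugars into the endoplasmic reticulum, differed by -1.66 ± 0.26 (3.17-fold, adjusted p = 0.0076). So the precursor enzyme, the carrier and transferases were all represented among the lower genes. Ugp2, which makes UDP-glucose, differed by -1.05 ± 0.22 (adjusted p = 0.036), kept in 3 of 12 fits leaving out 1 array and up to 0.147. Ugt2b genes share much of their sequence, so probes may read relatives.

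Export and ester hydrolysis held the largest differences. Abcc3, a pump of the basolateral membrane that moves glucuronides and bile acids into blood, read 11.38, 12.02 and 12.09 in wild type and 7.24, 7.46 and 7.72 in the null group. With -4.36 ± 0.35, 20.5-fold, it was the largest difference of all genes tested (adjusted p = 4.85e-05). Abcc4, a related basolateral pump, read 5.49, 6.25 and 5.84 against 4.93, 4.62 and 4.85, all null arrays and 1 wild type array under their medians (difference -1.06 ± 0.16, adjusted p = 0.00484). The canalicular pump gene Abcc2 differed by -0.56 ± 0.14 and did not pass (limma adjusted p = 0.0896). That left 2 of 13 efflux genes called (1.45% of all genes). Ces1g, a carboxylesterase, read 8.12, 8.56 and 8.83 in wild type and 4.50, 4.74 and 4.97 in the null group, where all arrays were under their medians (difference -3.77 ± 0.22, adjusted p = 2.43e-06).

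Ces1f, another carboxylesterase, read 12.56, 12.80 and 12.59 in wild type and 6.68, 8.58 and 10.32 in the null group. The wild type arrays were tight and the null arrays spanned more than 3 log2 units, so the difference of -4.13 ± 0.88 passed narrowly (adjusted p = 0.0412). It was kept in 3 of 12 fits leaving out 1 array, and adjusted p was 0.141 without wild type CDDO-Im replicate 2 and 0.127 without null CDDO-Im replicate 1. Under vehicle Ces1f differed by -4.13 as well, without passing (limma adjusted p = 0.0744). Ces1f and Ces1g were the called members among 9 carboxylesterases measured (1.45% of all genes were called). Of 10 uptake carriers of organic ions measured, only Slc22a7, an organic anion transporter, was called (1.45% of all genes were). Slc22a7 was higher by 1.12 ± 0.23 (limma adjusted p = 0.0332), kept in 7 of 12 fits leaving out 1 array and up to 0.137.

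Of 32 measured genes on the list of cytochrome P450 enzymes and their receptors 3 were lower and 1 higher (0.824% and 0.621% of all genes). The median of that list was -0.02. Cyp2d13, a P450 gene outside that list, differed by -2.28 (adjusted p = 3.05e-04). Cyp1a2, which oxidises aromatic amines and caffeine, read 13.09 ± 0.12 in wild type and 11.88 ± 0.11 in the null group (SD, n = 3 each), without overlap (2.33-fold, adjusted p = 0.00283). Ahr, the receptor that drives Cyp1a genes, differed by -0.75 ± 0.16 (adjusted p = 0.0476; kept in 2 of 12 fits that left out 1 array, up to 0.179). The calls of Cyp2c38 (-1.27 ± 0.26, adjusted p = 0.0359) and Cyp3a13 (0.92 ± 0.20, adjusted p = 0.0469) were kept in 4 and 1 of those fits, with adjusted p up to 0.143 and 0.152.

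**Figure D3:**
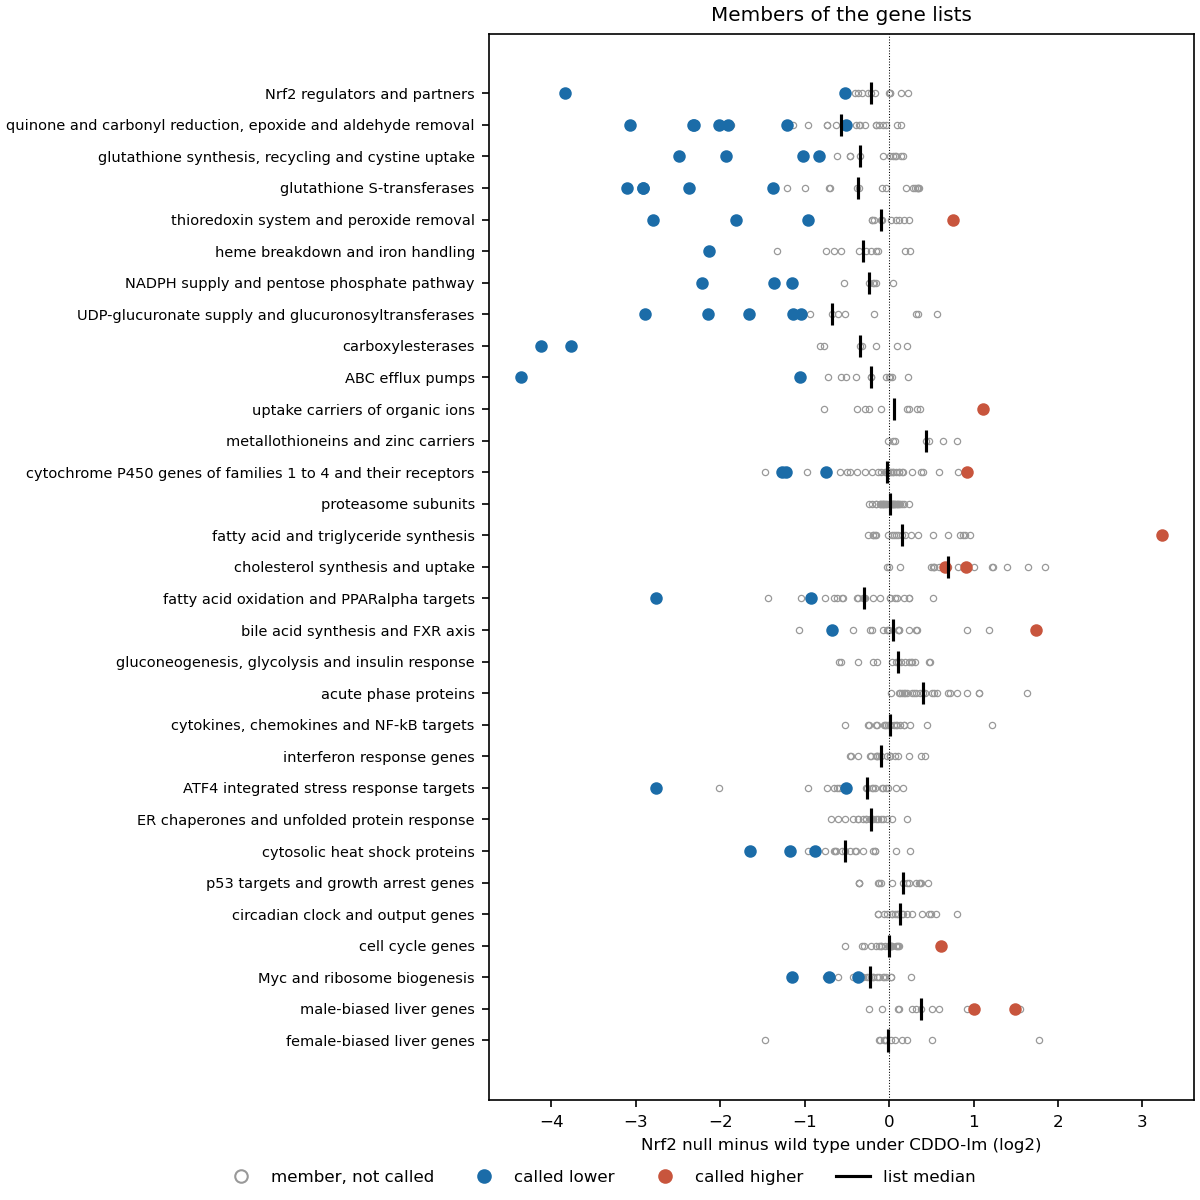
Each row is a gene list and each circle a measured member, placed at its log2 difference, Nrf2 null minus wild type under CDDO-Im; filled blue and red circles are members called lower and higher, and the black bar is the list's median. The lists of quinone and carbonyl reduction, glutathione S-transferases and glucuronidation have 7, 5 and 5 filled blue circles. Over all genes 0.824% were called lower. The proteasome list has 31 members near 0 and none called.

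Genes outside conjugation and reduction were also lower. Pir, pirin, an iron-binding nuclear protein, read 9.17, 9.04 and 8.98 in wild type and 6.41, 6.24 and 5.89 in the null group (7.36-fold, adjusted p = 1.06e-05). Fgf21, a hormone secreted by the stressed or fasted liver, read 9.23, 10.31 and 10.20 against 6.88, 7.17 and 7.40 (6.78-fold, adjusted p = 5.35e-04). Both were separate between the groups with more than 1 log2 unit to spare. Fgf21 belonged to the lists of fatty acid oxidation, with 2 lower of 24 measured, and of ATF4 targets, with 2 lower of 19. Over all genes 0.824% were called lower. Atf4 itself, the factor of the integrated stress response, differed by -0.51 ± 0.10 (adjusted p = 0.027), kept in 8 of 12 fits leaving out 1 array and up to 0.115. The peroxisomal gene Pex11a, the other call of the oxidation list, differed by -0.93 ± 0.19 (adjusted p = 0.0347; kept in 6 of 12, up to 0.119).

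Cytosolic heat shock genes had a median of -0.52, with 3 called lower of 19 measured (0.824% of all genes). Hsp90aa1, the inducible HSP90, read 10.92, 11.13 and 10.93 in wild type and 9.78, 9.57 and 10.09 in the null group (2.26-fold, adjusted p = 0.00113). Hspb1, a small heat shock protein, read 10.43, 9.63 and 9.49 against 8.16, 8.29 and 8.16 (3.13-fold, adjusted p = 0.0212; kept in 7 of 12 fits leaving out 1 array, up to 0.0774). Hspa4l, of the HSP110 family, differed by -0.87 ± 0.16 (adjusted p = 0.0181; kept in 7 of 12, up to 0.0709). The number called in this list ranged from 1 to 6 over those fits. Endoplasmic reticulum chaperones had no call among 20 measured by limma, with a median of -0.22. At an unadjusted p under 0.05 there was 1 (11.3% of all genes). In value 18 were lower and 2 higher in the null group, and 8 were lower without overlap (7.82% of all genes). From 0 to 2 members were called over the fits leaving out 1 array.

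Among 22 genes of Myc and ribosome biogenesis 3 were called lower (0.824% of all genes). Myc, the growth factor-responsive regulator of that programme, read 7.58, 7.59 and 7.66 in wild type and 6.79, 6.11 and 6.48 in the null group (2.22-fold, adjusted p = 0.0232; kept in 7 of 12 fits leaving out 1 array, up to 0.0912). Nop58 and Polr1b, a nucleolar ribonucleoprotein and a subunit of RNA polymerase I, differed by -0.71 ± 0.15 and -0.37 ± 0.08 (adjusted p = 0.0359 and 0.0433). Their calls were kept in 3 and 2 of the 12 fits, up to 0.13 and 0.164, and the count for this list ranged from 0 to 4. Proteasome subunits, a further group reported as Nrf2 targets in other settings, had no call among 31 measured by limma. At an unadjusted p under 0.05 there were 2, against 11.3% of all genes. Their median was 0.02, and the groups did not overlap for 1 member, against 16.8% of all genes.

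Promoters are shown for genes that were lower in the null group and carry the core letters of the antioxidant response element, TGACNNNGC, on either strand of the 250 bases before an annotated start. Windows are from RefSeq (GRCm38.p6), written in the direction of transcription, and the capitals mark these letters. The genes searched were the 12 largest falls and the Nrf2 genes of standing interest that were lower.
Nfe2l2: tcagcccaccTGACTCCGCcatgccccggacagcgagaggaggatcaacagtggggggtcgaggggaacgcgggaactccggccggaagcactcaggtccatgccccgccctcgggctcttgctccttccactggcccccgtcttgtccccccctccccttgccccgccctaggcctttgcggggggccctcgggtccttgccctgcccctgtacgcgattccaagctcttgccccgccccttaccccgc
Ugdh: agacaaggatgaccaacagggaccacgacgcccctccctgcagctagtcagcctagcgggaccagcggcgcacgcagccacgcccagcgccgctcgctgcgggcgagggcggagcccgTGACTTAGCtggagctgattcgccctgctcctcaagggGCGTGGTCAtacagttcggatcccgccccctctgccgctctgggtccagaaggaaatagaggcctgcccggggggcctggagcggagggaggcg
Pir: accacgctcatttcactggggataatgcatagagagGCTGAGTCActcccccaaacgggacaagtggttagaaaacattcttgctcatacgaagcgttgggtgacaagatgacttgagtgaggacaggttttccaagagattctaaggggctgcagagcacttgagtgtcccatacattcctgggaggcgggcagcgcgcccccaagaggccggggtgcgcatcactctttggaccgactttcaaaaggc
Txnrd1: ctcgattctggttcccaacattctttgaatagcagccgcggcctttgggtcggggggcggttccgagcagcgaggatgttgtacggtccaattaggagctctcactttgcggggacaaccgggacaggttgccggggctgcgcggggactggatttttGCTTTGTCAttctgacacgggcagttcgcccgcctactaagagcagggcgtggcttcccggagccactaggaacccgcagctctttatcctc
Gclm: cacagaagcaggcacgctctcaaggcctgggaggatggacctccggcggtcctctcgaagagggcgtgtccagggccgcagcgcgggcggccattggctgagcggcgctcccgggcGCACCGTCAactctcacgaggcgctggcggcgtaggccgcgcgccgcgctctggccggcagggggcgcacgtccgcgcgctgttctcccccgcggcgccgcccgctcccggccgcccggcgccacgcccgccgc
The Nfe2l2 window is chr2:75704664-75704913 (minus strand), with the letters starting at position -240 from the start. Ugdh, at chr5:65435843-65436092 (minus strand), holds 2 matches, at -132 on the transcribed direction's strand and at -94 on the other. Pir, at chrX:164269181-164269430 (plus strand), holds 1 at -214 on the other strand, whose letters GCTGAGTCA also contain an AP-1 site, TGAGTCA. Txnrd1 has 3 annotated windows, of which 1, chr10:82858956-82859205 (plus strand), holds a match at -92 on the other strand. Gclm, at chr3:122245307-122245556 (plus strand), holds 1 at -134 on the other strand.

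The letters occurred in 24.0% of the 125 genes called lower that had a window (30 genes), in 13.0% of the 92 called higher (12 genes) and in 13.4% of the 14368 tested genes with a window (1928 genes). Over all 32851 windows of the table, 10.2% held them. A match is a description of the sequence and not of binding. Windows of Ces1g, Gsta2, Aox1, Gstm4, Gstm3, Srxn1, Fgf21 and Nqo1 did not hold these letters within 250 bases, and Abcc3, Ces1f and Gclc had no window in the table.

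Among the called genes rises in the null group were fewer than falls (113 against 150) and smaller in the median (0.67 against -0.93), whereas over all genes tested 1640 were higher without overlap and 1422 lower. Thrsp, also called Spot 14, a nuclear protein that promotes lipogenesis, showed the largest: 7.96, 8.75 and 8.46 in wild type and 11.67, 11.31 and 11.87 in the null group. That is 9.38-fold higher with no overlap (difference 3.23 ± 0.40, adjusted p = 0.00122), and a further Thrsp probe set differed by 3.07 while a dim one differed by 0.09. The other 20 measured genes of fatty acid and triglyceride synthesis did not pass; Fads1, a desaturase, differed by 0.96 (adjusted p = 0.0731), Fasn, fatty acid synthase, by 0.84 (adjusted p = 0.101), and Acly, which supplies cytosolic acetyl-CoA, by 0.53 (adjusted p = 0.147). The list's median was 0.15.

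Further lipid and membrane genes stood among the largest rises. Gpcpd1, which splits glycerophosphocholine, read 9.81, 10.13 and 10.17 in wild type and 12.08, 11.53 and 11.57 in the null group (3.22-fold, adjusted p = 0.00796). Tlcd2, a membrane lipid regulator, read 8.81, 8.48 and 8.66 against 10.35, 9.75 and 9.92 (2.57-fold, adjusted p = 0.00743). Frmd4b, a scaffold protein, read 7.56, 8.20 and 7.63 against 9.12, 9.66 and 9.27 (2.94-fold, adjusted p = 0.00827). These 3 were called in every fit leaving out 1 array. Fabp5, a fatty acid binding protein, differed by 1.91 ± 0.38 (adjusted p = 0.0319), kept in 6 of those 12 fits and up to 0.137. Amacr, a racemase of branched fatty acids and bile acid intermediates, differed by 1.74 ± 0.36 (adjusted p = 0.0367; kept in 3 of 12, up to 0.151).

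Enzymes of small molecules and secreted proteins made up the rest. Sult1a1, a phenol sulfotransferase, read 10.98, 11.26 and 11.33 in wild type and 12.93, 12.53 and 12.30 in the null group (2.63-fold, adjusted p = 0.0152; kept in 9 of 12 fits leaving out 1 array, up to 0.0695). Akr1e1, an aldo-keto reductase, differed by 1.52 ± 0.26 (2.86-fold, adjusted p = 0.0131; 10 of 12, up to 0.0681). Both are enzymes of conjugation or reduction, and both were higher in the null group. Got1, the cytosolic aspartate aminotransferase, read 10.35, 10.20 and 10.19 against 13.01, 11.88 and 11.17 (adjusted p = 0.0391; 3 of 12, up to 0.137). C6, a terminal complement component that is male-biased in mouse liver, differed by 1.49 ± 0.27 (2.81-fold, adjusted p = 0.0154; 10 of 12, up to 0.0695).

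Cholesterol synthesis and uptake had the highest median of the pathway lists, 0.69. In value 18 of 19 measured members were higher in the null group, 11 without overlap (background 9.01%). Only 2 passed the test (0.621% of all genes were called higher). Sc5d, a late desaturase of the pathway, read 8.87, 8.81 and 8.60 in wild type and 9.64, 9.70 and 9.65 in the null group (1.87-fold, adjusted p = 0.00261). The 2 further Sc5d probe sets differed by 0.05 and 0.30 and were not called, and with the mean of its probe sets Sc5d did not pass (adjusted p = 0.0774). Ebp, the sterol isomerase of the same stretch, read 10.98, 10.79 and 10.72 against 11.61, 11.43 and 11.44 (1.58-fold, adjusted p = 0.00599). Insig1, the sterol sensor partner, and Pmvk, phosphomevalonate kinase, just missed, with 1.22 and 0.69 (adjusted p = 0.0524 and 0.0536). Null replicate 1 carried much of the shift: the members' median deviation from the mean of the 6 arrays was 0.78 there, against 0.04 and 0.01 on the other null arrays and -0.40 to -0.37 on the wild type arrays. Over the fits leaving out 1 array 2 to 6 members were called.

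Acute phase genes showed the same unevenness. All 23 measured members were higher in the null group in value, with a median of 0.40 and 10 without overlap (9.01% of all genes). None passed the limma test, while 9 had an unadjusted p under 0.05 (11.3% of all genes). The median deviation was 0.44 on null replicate 1 and -0.40 on wild type replicate 1, and between -0.08 and 0.10 on the other CDDO-Im arrays. Itih3, a serum inhibitor chain, came nearest, with 0.53 ± 0.12 (adjusted p = 0.0644). Metallothioneins and zinc carriers, with 7 measured and a median of 0.44, had no call by limma (1 at an unadjusted p under 0.05); Mt2 read 13.54, 12.79 and 12.12 in the null group against 11.63, 12.46 and 11.95.

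**Figure D4:**
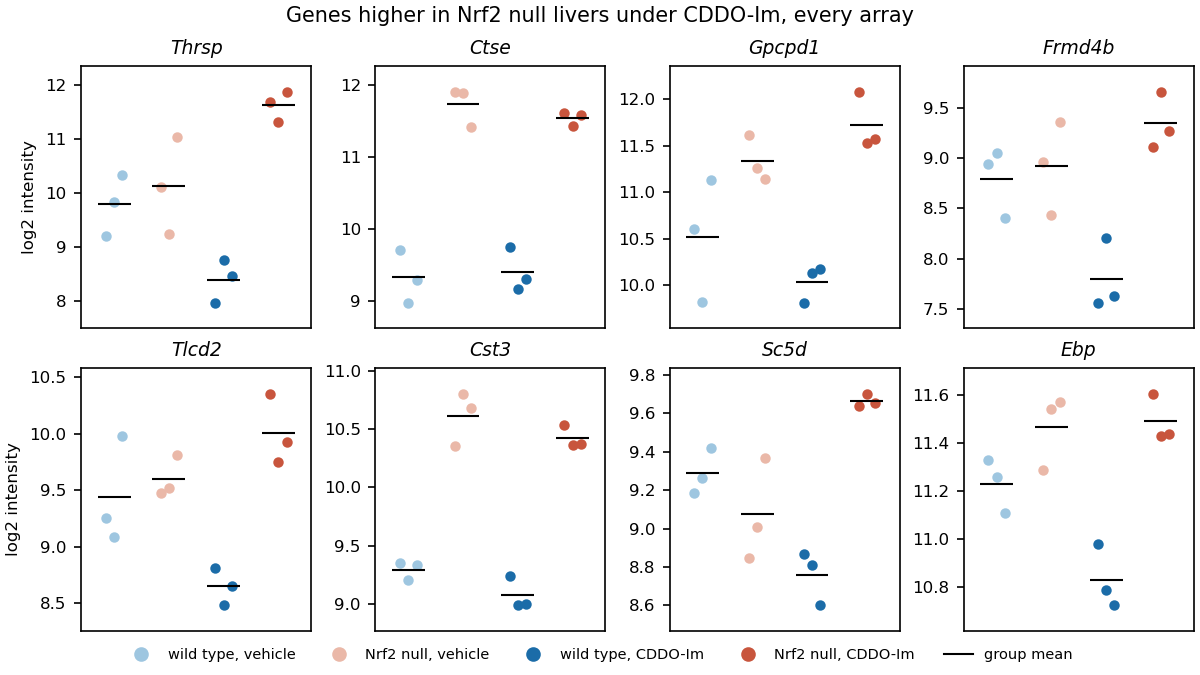
Each panel gives the log2 intensity of 1 gene on all 12 arrays in the same colours and order as for the lower genes, with a bar at each group mean. All 8 genes are higher on the null CDDO-Im arrays than on the wild type CDDO-Im arrays. Ctse and Cst3 show a like difference under vehicle, and Sc5d does not. The change between treatments was called for Sc5d and not for Thrsp.

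Some genes differed by genotype under either treatment. With vehicle 71 genes were called (0.39%), and 22 of them were also called under CDDO-Im, which is 8.37% of the calls under CDDO-Im and 31.0% of those under vehicle. All 22 had the same direction, 14 lower and 8 higher; the comparisons share no array, although the fit shares its estimate of the spread. Cyp2d13, of the P450 2D family, read 10.09 ± 0.30 in wild type and 7.80 ± 0.29 in the null group under CDDO-Im (SD, n = 3 each; 4.87-fold, adjusted p = 3.05e-04), with a difference of -3.11 under vehicle. Aox1 differed by -1.86 under vehicle against -3.06 under CDDO-Im. Cd59a, a complement regulator of the cell surface, differed by -1.30 and -1.45 under CDDO-Im and vehicle, and Josd2, a deubiquitinase, by -1.06 and -0.93.

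Ctse, the aspartic protease cathepsin E, read 9.75, 9.17 and 9.31 in wild type and 11.60, 11.43 and 11.58 in the null group under CDDO-Im (4.37-fold, adjusted p = 1.46e-04), and differed by 2.40 under vehicle. Another Ctse probe set went the other way, by -1.06 (not called, adjusted p = 0.22), and the mean of both did not pass (adjusted p = 0.354). Cst3, the protease inhibitor cystatin C, read 8.99 to 9.24 against 10.36 to 10.54 (2.55-fold, adjusted p = 8.06e-05), with 1.32 under vehicle. Foxa3, a liver transcription factor, and Ptpmt1, a mitochondrial phosphatase of cardiolipin synthesis, were higher by 1.03 and 1.01 under CDDO-Im and by 0.70 and 0.74 under vehicle. Cab39l, Vcpkmt and Alkbh6 were higher by 0.89, 0.78 and 0.69, and by 0.60, 0.54 and 0.68 under vehicle. The complement component C9 differed by 0.70 and 0.69, but without wild type CDDO-Im replicate 2 the call under CDDO-Im did not pass (adjusted p = 0.054). Mfsd2a, a carrier of lysophospholipids, and Wfdc2, a secreted protease inhibitor-like protein, differed by -2.04 and -1.11 (adjusted p = 0.0275 and 0.0174); each was kept in 8 of 12 fits leaving out 1 array, up to 0.119 and 0.0813.

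For other genes the genotype difference changed between treatments. The test of that change, the difference under CDDO-Im minus the difference under vehicle, called 25 genes (0.137%), 23 negative and 2 positive. Of the 25, 24 were also called under CDDO-Im. The exception, Cxcl1, changed by -1.88 and differed less under CDDO-Im than under vehicle. Srxn1 differed by 0.01 under vehicle and changed by -2.81 (adjusted p = 8.7e-08), and Nqo1 differed by -0.28 under vehicle and changed by -2.03 (adjusted p = 5.04e-06). Pgd changed by -2.50, Gsr by -1.80, Cbr3 by -1.95 and Cbr1 by -2.03. Ces1g changed by -3.03 (adjusted p = 0.0011) and Gstm4 by -2.75 (adjusted p = 8.3e-04). Sc5d and Lgr4 were the 2 positive, with 1.12 (adjusted p = 0.0284) and 0.62 (adjusted p = 0.0272). Each was kept in 2 of the 12 fits leaving out 1 array, with adjusted p up to 0.123 and 0.099, and neither passed with the replicate number as a block (adjusted p = 0.0638 and 0.103). Of the 25 calls 15 were kept in all 12 of those fits. Nfe2l2 changed by 0.05 (adjusted p = 0.987). Over all genes called lower under CDDO-Im, 131 of 150 were also lower in value under vehicle, with a median of -0.30, and 95 of 113 of the higher genes were higher in value, with a median of 0.20. Abcc3, Gclc, Gsta2 and Fgf21 differed by -1.69, -0.75, -0.39 and -0.86 under vehicle without passing, and their changes of -2.66, -1.73, -2.71 and -1.90 did not pass either (adjusted p = 0.118, 0.155, 0.179 and 0.195). Each vehicle title ends in a bracketed 2, which is missing from the CDDO-Im titles; its meaning is not stated, and in this test the mark and the compound cannot be told apart.

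**Figure D5:**
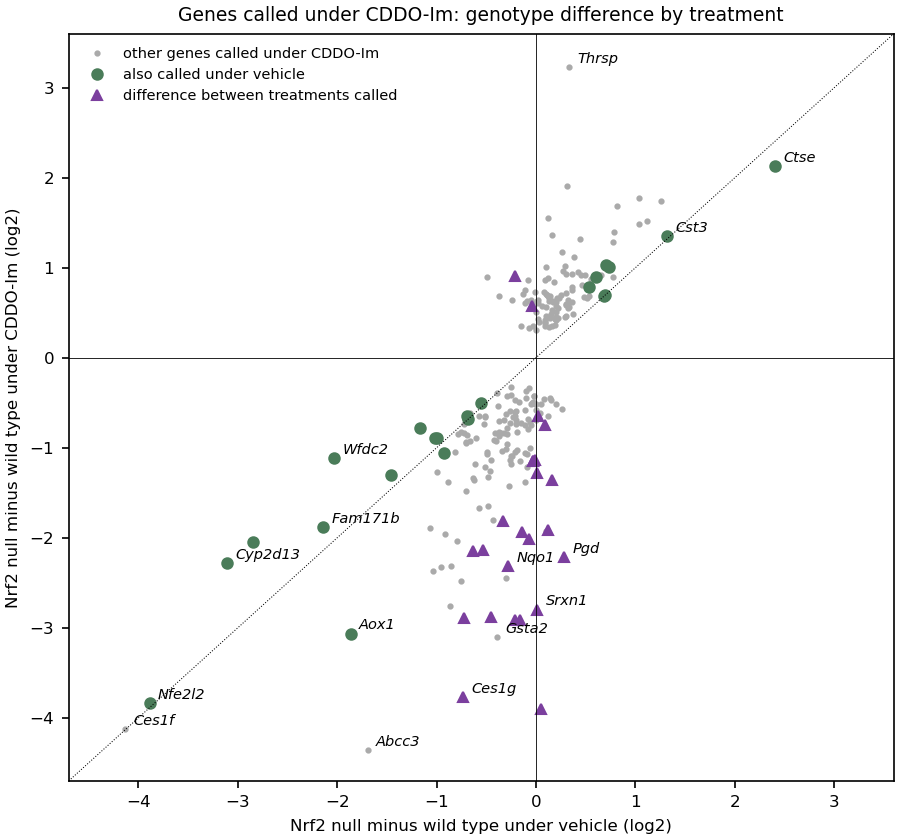
The 263 genes called under CDDO-Im are placed by their log2 genotype difference under vehicle (horizontal) and under CDDO-Im (vertical); green circles were also called under vehicle, purple triangles were called for the change between treatments, and the dotted line marks equal differences. Nfe2l2, Cyp2d13, Ctse and Cst3 lie close to or beyond that line, and Srxn1, Nqo1 and Pgd lie near 0 on the horizontal axis.

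Neighbours of Nfe2l2 on chromosome 2 were counted by gene order, since the labels do not describe the allele. Within 60 protein-coding genes to either side 2 of 108 tested genes were called (1.85%): Fam171b, 36 genes away, which read 7.02, 7.08 and 7.03 in wild type and 5.41, 4.80 and 5.29 in the null group, and Slc43a1, 52 genes away. Fam171b was lower under both treatments (-1.88 ± 0.24, adjusted p = 0.00162; -2.14 under vehicle), with all null arrays under their medians. Slc43a1, an amino acid carrier, was higher by 0.67 ± 0.14 (adjusted p = 0.0375; kept in 5 of 12 fits leaving out 1 array, up to 0.141). Chromosome 2 without Nfe2l2 had 23 of 1398 called (1.65%) and the other chromosomes 239 of 16630 (1.44%). Genes called under both treatments were 6 of 1398 on chromosome 2 (0.429%) and 15 of 16630 on the others (0.0902%), a difference that was not tested. Those 6 were Fam171b, Cd59a, Wfdc2, BC029722, Ptpmt1 and Cst3, and chromosome 7 also held 6, of 1413.

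Few markers of other liver cells passed the test, which 1.45% of all genes passed. Of the endothelial markers 1 of 12 was called: Lyve1, a hyaluronan receptor of sinusoidal endothelium, read 6.89, 6.72 and 7.65 in wild type and 5.74, 4.74 and 5.01 in the null group, where all arrays were under their medians (difference -1.92 ± 0.28, adjusted p = 0.00412). Stab2 and Kdr, of the same cells, differed by 0.46 and 0.40 and did not pass. Of the 12 endothelial markers 6 were higher in the null group without overlap and 2 lower (9.01% and 7.82% of all genes), and 5 had an unadjusted p under 0.05 (11.3% of all genes). Of the Kupffer cell and macrophage markers 1 of 12 was called: Marco, a scavenger receptor, read 6.90, 7.87 and 6.72 against 5.86, 5.90 and 5.77 (2.5-fold, adjusted p = 0.0307; kept in 8 of 12 fits leaving out 1 array, up to 0.0993). Clec4f and Cd5l, other Kupffer cell markers, differed by -0.26 and -0.73 without passing. In the main fit no neutrophil, lymphocyte, stellate, cholangiocyte, erythroid, acinar or adipocyte marker was called by limma. At an unadjusted p under 0.05 there were 1 cholangiocyte, 1 erythroid and 1 adipocyte marker and 0 of the others. Without both arrays with acinar transcripts 1 acinar marker was called. The 6 adipocyte markers measured were all lower in value in the null group, with median levels of 5.77 to 6.57 against 6.36 to 7.43 in wild type. Their median deviation was 0.60 on wild type replicate 1, -0.13 and 0.09 on the other wild type arrays and -0.17, -0.10 and -0.34 on the null arrays, so wild type replicate 1 stood highest and wild type replicate 2 lay among the null arrays. Their part in the results on lipid genes was not tested. The hepatocyte marker Tdo2, the first enzyme of tryptophan breakdown, differed by -0.65 ± 0.12 (adjusted p = 0.0204; 8 of 12, up to 0.0861).

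Remaining lists held few or no calls, where 1.45% of all genes were called. Acox2, a peroxisomal oxidase of bile acid precursors, differed by -0.67 ± 0.10 (1.6-fold, adjusted p = 0.00484), and with Amacr it was 1 of 2 calls among 18 bile acid genes. Cyp7b1, a male-biased sterol hydroxylase, differed by 0.92 (adjusted p = 0.143), and the male-biased list had 2 higher of 13 measured, C6 and Nudt7, the latter kept in 4 of 12 fits leaving out 1 array (adjusted p = 0.0485, up to 0.188). Mcm6, a replication helicase subunit, was the only cell cycle gene called of 21, with 0.62 ± 0.12 (adjusted p = 0.0204; 8 of 12, up to 0.0929), and all its wild type arrays were under their medians. Gluconeogenesis and glycolysis, cytokines and NF-kB targets, interferon response, p53 targets, clock genes and female-biased genes had no call among 17, 21, 19, 15, 18 and 12 measured members by limma. Of these members 4, 3, 4, 3, 5 and 1 had an unadjusted p under 0.05, against 11.3% of all genes. Of all 263 calls 57 were in a pathway list and 206 in none.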

How the data were processed

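Liver RNA was measured on 12 one-colour Affymetrix arrays in 4 groups of 3, grouped by the labels. The deposited values are log2 intensities and were used as they stand; the submitters' processing notes name RMA as the authors' method, and its version is not given in the sources used here. Of 45101 probe sets, 64 were controls, 34945 named 1 gene, 932 several and 9160 none; Entrez ids matched 34741 and changed 0 symbols. The probe set with the highest mean represented each gene, without a filter on low signal. Signal over background was not used here, and the number of arrays limits the precision; values under an array's median are read as uncertain in size. With limma 3.58.1 (R 4.3.3, statmod 1.5.0) the 4 group means were estimated in a single model of all 12 arrays, two-sided, with 8 residual and 3.81 prior degrees of freedom, called at adjusted p under 0.05. An exact permutation of 3 against 3 cannot go below 0.1.

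The members, the lists (31 of pathways, 10 of markers, 619 of 686 members measured) and the alternatives were chosen with earlier results of these data known. Genes could be named if among the 12 largest falls or rises called without overlap (clone and model names left out), the 4 smallest adjusted p of a list, 8 Nrf2 genes, called genes within 60 genes of Nfe2l2, the 8 brightest called genes, or the 8 falls and 8 rises called under both treatments. Genes called for the change between treatments, and those of the other observations, were chosen after their values were seen. The scripts were tested on simulated data. Figures were drawn with matplotlib 3.10.9 and tables with pandas 2.3.3 in Python 3.11.15.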

Additional observations from a re-analysis of the deposited data

Results flagged for a closer look

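The genotype difference under CDDO-Im differed from that under vehicle, by the limma test of the change itself, for 25 genes. Each change is given in log2, under CDDO-Im minus under vehicle. The redox and NADPH genes Srxn1, Txnrd1, Gsr, Nqo1, Pgd and Tkt changed by -2.81, -1.48, -1.80, -2.03, -2.50 and -1.12. The conjugating and detoxifying genes Gstm3, Gstm4, Ugdh, Ugt2b35, Ces1g, Cbr1, Cbr3 and Blvrb changed by -2.71, -2.75, -2.17, -1.52, -3.03, -2.03, -1.95 and -1.60. Pir changed by -2.43, Osgin1, an oxidative stress-induced growth inhibitor, by -1.52, and the heme transporter Slc48a1 by -1.30. The transcript 9130409I23Rik changed by -3.95, Arpp19 by -1.12, Cds2 by -1.12, Cdc34 by -0.84 and Dcaf12 by -0.67. Lgr4, a receptor of R-spondins, changed by 0.62 and Sc5d by 1.12. In the 12 fits leaving out 1 array, Sc5d, Lgr4, Tkt and Ugdh kept the call in 2 each, Cdc34 and Dcaf12 in 1, Arpp19 and Slc48a1 in 4, Cds2 in 6 and Osgin1 in 7; 8 of those fits had no positive call.

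On the probe set used, the chemokine gene Cxcl1 changed by -1.88 with the opposite arrangement to the rest. It read 8.97 to 9.19 in wild type and 9.04 to 9.22 in the null group under CDDO-Im. There the difference was 0.06 (limma adjusted p = 0.962), and under vehicle it was 1.94, higher in the null group (adjusted p = 3.49e-04). Further Cxcl1 probe sets differed by 1.76 and 0.90 under CDDO-Im, neither called (limma adjusted p = 0.240 and 0.452 over all probe sets). The near-absence of a difference under CDDO-Im therefore depends on the probe set.

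The gene comparisons did not use probe sets with several gene names or without one. Of 10092 of them tested in the same way, 31 were called between the genotypes under CDDO-Im (0.307%), 20 lower and 11 higher in the null group; no gene can be named from them here.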

How the results depend on the processing

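Counts of calls are given as CDDO-Im, vehicle and change between treatments (263, 71 and 25). Leaving out 1 array gave 151 to 464, 19 to 219 and 15 to 46. Adjusted p under 0.01 gave 123, 16 and 15, a minimum fold of 1.5 gave 28, 8 and 10, and leaving out both arrays with acinar transcripts, an alternative chosen after seeing the data, gave 411, 117 and 39. Every probe set gave 443 calls under CDDO-Im and 50 for the change, array weights gave 1477 under vehicle and 89 for the change, and the compared arrays alone gave 18 under vehicle. The cause of these shifts was not tested. No named gene that was called in the main fit or in the alternative reversed its direction under that alternative. Sign changes of genes called in neither were not counted. With the mean of a gene's probe sets Ces1f, Fabp5, Ctse, Sc5d, Sod3, Pex11a, Atf4 and Marco did not pass (adjusted p 0.0518 to 0.354), with the robust prior Ces1f, Fabp5, Got1, Amacr, Cyp2c38 and Mfsd2a (0.0509 to 0.114), and Mafg, Ahr, Cyp3a13, Polr1b, Slc43a1 and Nudt7 failed under several settings.

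With the replicate number as a block the counts were 231, 80 and 20, and 207 of the 263 genes were called. The numbers do not pair the samples: deviations of same-numbered CDDO-Im arrays correlated at -0.16, -0.30 and -0.20, and 0 of 6 correlated best with their own number (1 of 6 for vehicle, at 0.04, -0.21 and -0.21). Of the named calls 8 did not pass with the block.

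Of 303 further probe sets of 146 called genes, 254 had the same direction (93 called) and 0 were called in the opposite one. For 18 lower genes all null arrays, for 11 higher genes all wild type arrays and for 8 genes all 6 were under the array medians.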

Other observations

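Outside the lists, further groups could be seen among the called genes, picked after their values were known and given as values only. The complement genes C8b and C2 differed by 0.71 and 0.76 (adjusted p = 0.010 and 0.016 by limma), and the coagulation factor gene F7 by 0.71 (adjusted p = 0.014). Under vehicle these 3 differed by 0.10, -0.11 and -0.13, none called. The complement genes C9 and C6 differed by 0.70 and 1.49 under CDDO-Im and by 0.69 and 1.04 under vehicle, where C9 was called and C6 was not (adjusted p = 0.0338 and 0.128 by limma). Called enzymes of amino acid metabolism lay on both sides. Bhmt, which remethylates homocysteine, was higher by 1.17, Hal, which opens histidine breakdown, by 0.92, and Aspdh, an aspartate dehydrogenase-like gene, by 1.29; Tdo2, of tryptophan breakdown, differed by -0.65 and Csad, of taurine synthesis, by -1.96.

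Lower genes of other kinds included Entpd5, a nucleotidase of the secretory pathway, with -2.31 and Gbe1, the glycogen branching enzyme, with -2.04. Slc25a37, the mitochondrial iron carrier, differed by -1.26 and the heme transporter gene Slc48a1 by -1.28. The lysosomal genes Creg1 and Hexa differed by -1.43 and -1.38, and Ctsa, another, by 0.63 in the opposite direction (adjusted p = 0.0196 by limma). The aminoacyl-tRNA synthetase genes Iars, Mars1 and Cars differed by -0.72, -0.69 and -0.60. Calls of these genes were not followed through the alternatives, apart from those of C9, C6 and Tdo2 and of Slc48a1, which was called in all 12 fits leaving out 1 array.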
